A study of Drosophila melanogaster with 2 samples.

Results

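Oxidative phosphorylation genes were taken as the nuclear protein-coding genes whose Ensembl symbols begin with ND-, Sdh, UQCR, COX or ATPsyn. The rule found 88 of the 13945 nuclear protein-coding genes on arms 2L, 2R, 3L, 3R, 4 and X of the dm6 assembly. The prefixes stand for complex I (40 genes), complex II (8), complex III (9), complex IV (16) and complex V (15). The label of subunit genes held for 63 structural subunits. Of the others, 24 are copies whose symbols add an L to that of a subunit, and 1, Sdhaf3, is an assembly factor of complex II. The assay was ChIP-seq, which sequences the DNA that an antibody pulls down with a protein, on sonicated chromatin of whole Drosophila melanogaster embryos of mixed sex aged 0 to 14 h. The single group is a transgenic line with GFP fused at the C-terminal end of CG8388, precipitated with an antibody against GFP. It comprises 2 libraries, biological replicates 2 and 3. All embryos carry the fusion, no untagged or input library was analysed here, and CG8388-dependent signal cannot be told apart from other signal.

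The respiratory chain passes electrons from NADH (complex I) and succinate (complex II) through complex III to oxygen at complex IV, and complex V makes ATP from the proton gradient this builds. Most subunits are nuclear-encoded, and a few are encoded by mitochondrial DNA, which no analysed peak list covers. In Drosophila, many L copies are known to be expressed mainly in the testis. Many fly housekeeping genes lie head to head with a neighbour, so that a short stretch of DNA serves as the promoter of both.

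Peaks ranked by the authors' signal value came from 4 lists. The thresholded list holds the 6075 peaks that passed the authors' reproducibility threshold, and the pooled list and both replicate lists hold 30000 each. All 6075 thresholded peaks stand in the pooled list at the same ranks, so a promoter with a pooled summit only has a weaker peak. A promoter summit is one within 500 bp of any transcription start site (TSS) of the gene. Read totals are not part of these lists, so depth is unknown and the intervals below cover counting error only.

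Stretches between facing TSSs, where a strong peak lies, are shown first because the results turn on them. Each runs 5′ to 3′ in the direction of the oxidative phosphorylation gene and ends at its TSS, with the 21 bases centred on the pooled summit in capitals.
ND-51, chr2L:6062757-6062989, minus strand: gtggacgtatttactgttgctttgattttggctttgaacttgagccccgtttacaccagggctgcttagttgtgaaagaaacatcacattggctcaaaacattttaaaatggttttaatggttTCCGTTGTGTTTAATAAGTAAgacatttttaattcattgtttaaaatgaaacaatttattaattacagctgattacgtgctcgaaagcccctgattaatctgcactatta
ND-42, chr3R:22027480-22027709, plus strand: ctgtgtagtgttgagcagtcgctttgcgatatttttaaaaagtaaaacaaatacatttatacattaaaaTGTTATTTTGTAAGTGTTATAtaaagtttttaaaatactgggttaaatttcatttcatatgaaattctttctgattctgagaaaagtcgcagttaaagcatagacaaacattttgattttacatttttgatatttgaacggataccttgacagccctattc
COX7B, chr3L:17425217-17425477, plus strand: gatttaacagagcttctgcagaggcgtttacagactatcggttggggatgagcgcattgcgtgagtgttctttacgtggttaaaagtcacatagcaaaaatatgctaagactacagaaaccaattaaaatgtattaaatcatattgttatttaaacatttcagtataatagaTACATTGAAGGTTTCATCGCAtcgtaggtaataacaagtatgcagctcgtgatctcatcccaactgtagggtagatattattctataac
These intervals are 233, 230 and 261 bases long, and their first base is the TSS of the neighbouring gene on the other strand, CG13994, Cchl and Sec3 in that order. Their GC content was 33.9%, 27.4% and 35.6%.

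The next sequences are the 101 bases centred on the summit at ND-24 and ATPsynCF6, again with the central 21 bases in capitals, and show how A/T-rich the summits themselves were.
ND-24, chrX:17632152-17632252, plus strand: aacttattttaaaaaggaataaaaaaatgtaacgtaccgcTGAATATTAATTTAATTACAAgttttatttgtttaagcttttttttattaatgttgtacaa
ATPsynCF6, chr3R:23356163-23356263, minus strand: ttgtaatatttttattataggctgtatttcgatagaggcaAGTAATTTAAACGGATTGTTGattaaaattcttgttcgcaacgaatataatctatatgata
GC content was 18.8% and 25.7% in these windows. By contrast, the following 101-base windows lie at weak summits that reached the pooled list only, those of the highest rank in complexes I, II and V.
ND-13A, chr2L:5100222-5100322, minus strand: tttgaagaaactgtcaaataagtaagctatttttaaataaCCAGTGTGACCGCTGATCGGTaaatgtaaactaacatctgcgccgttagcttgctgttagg
SdhD, chr3R:23760564-23760664, minus strand: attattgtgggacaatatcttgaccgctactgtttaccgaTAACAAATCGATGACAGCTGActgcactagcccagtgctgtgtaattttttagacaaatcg
ATPsynE, chr3R:14326965-14327065, plus strand: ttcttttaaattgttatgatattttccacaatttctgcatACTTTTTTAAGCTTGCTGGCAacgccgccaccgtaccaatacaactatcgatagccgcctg
Their GC content was 37.6%, 40.6% and 39.6%. All sequences were read from the RefSeq copy of Release 6, the assembly of dm6.

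Strong promoter peaks marked 14 of the 88 genes, 15.9% (Wilson 95% interval 9.72 to 24.95), compared with 20.4% of all protein-coding genes. All 14 were structural subunits. Among the 63 structural subunits the share was 22.2% (13.7 to 33.9), near that background. Weak peaks, with a pooled promoter summit but no thresholded one, marked 34 of the 63 structural subunits, 54.0% (41.8 to 65.7), and 26.6% of all protein-coding genes. Strong and weak peaks together marked 48 of the 63, 76.2% (64.4 to 85.0), and 47.0% of all protein-coding genes. Of the genes with a pooled promoter summit, 14 of 48 structural subunits (29.2%) and 43.3% of 6551 genes in all reached the thresholded list. The best peak of these 48 genes had a median pooled rank of 9606, compared with 7308 for the 6551 genes. These shares are descriptions, and no test of the difference was run.

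The L copies had fewer promoter summits than the structural subunits, a difference that was not tested. None of the 24 had a thresholded summit, a 0 that is compatible with shares up to 12.5%, next to 20.4% of all genes. Of the 24, 4 have an opposite-strand protein-coding gene starting within 1000 bp upstream. Among the 8893 genes without such a neighbour the thresholded share was 11.8%. The 0 therefore does not separate the copies from genes of that arrangement. Only 5 of the 24 copies (20.8%) had a pooled summit, ND-B14.5AL, UQCR-6.4L, COX4L, COX7AL and COX7AL2, the best of which, UQCR-6.4L, had pooled rank 8937 and a summit at -411 bp from its TSS. Neither replicate list held a promoter summit for 18 of the 24 (75%), compared with 41.2% of all protein-coding genes. For 20 copies the subunit they are named after is also among the structural subunits. Of these 20 pairs, 14 had a pooled summit at the subunit only, such as ND-24 and ND-24L, 4 at both, 1 at the copy only (COX4 and COX4L) and 1 at neither (ND-49 and ND-49L). The assembly factor Sdhaf3 had a promoter summit in replicate 3 only, at rank 12042.

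**Figure D1:**
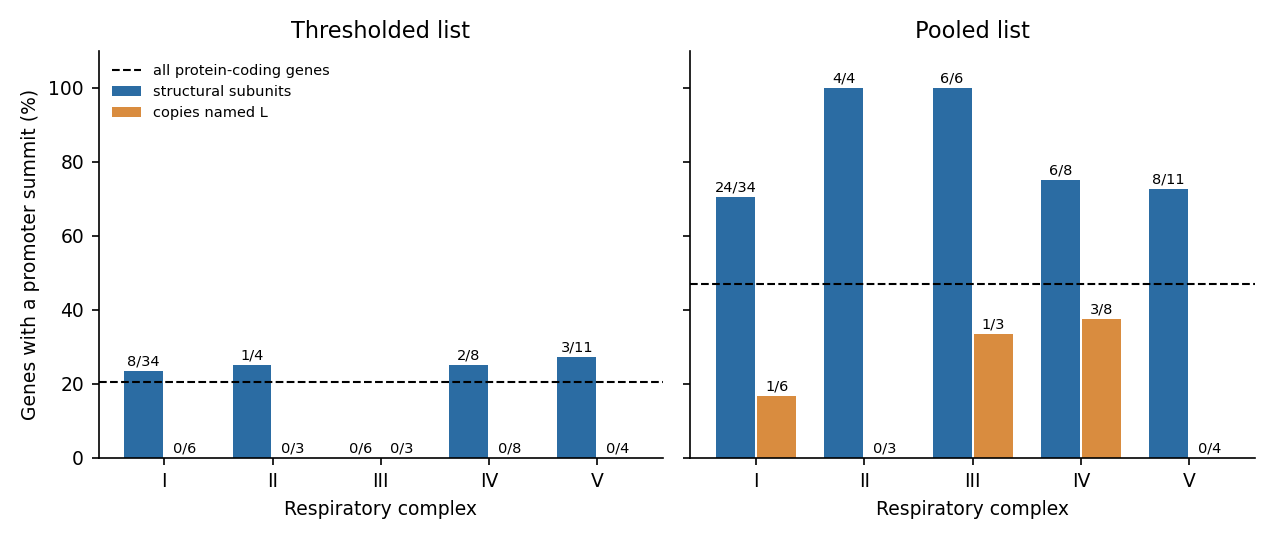
Percentage of genes with a promoter summit, by respiratory complex, in the thresholded list (left) and the pooled list (right). Blue bars are structural subunits and orange bars L copies, fractions give gene counts, and the dashed line is the share of all protein-coding genes (20.4% and 47.0%). Structural subunits of complexes I, II, IV and V lie close to the line on the left, complex III is at 0 there, and structural subunits of all 5 complexes lie above it on the right.

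Both replicates listed a promoter summit for 37 of the 63 structural subunits (58.7%), compared with 37.3% of all protein-coding genes. Replicate 3 alone listed 19 (30.2%, compared with 14.99% of all genes) and replicate 2 alone 6 (9.52%, compared with 6.50%). In replicate 3, 56 of 63 (88.9%) had a promoter summit, with 52.3% of all genes, and in replicate 2 the count was 43 of 63 (68.3%), with 43.8% of all genes. ND-49, a quinone-site subunit of complex I on chromosome 4, was the only structural subunit with none in either list. Among the 6075 leading peaks of each replicate, which match the thresholded list in length, 15 structural subunits had a promoter summit in replicate 2 (background 20.3%) and 13 in replicate 3 (background 21.3%).

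Complex I, the NADH dehydrogenase, held 8 of the 14 strong promoter peaks. It also has 34 of the 63 structural subunits, and its share of 23.5% was near the 20.4% of all protein-coding genes. Of the 7 subunits of its NADH-oxidising module 2 had one, of the 8 subunits of the quinone-reducing module 1, and of the 17 subunits of the membrane arm 5. Modules are assigned from the mammalian orthologues, and ND-ACP and ND-MLRQ were placed in none. Pooled promoter summits were found for 6 of the 7, 5 of the 8 and 12 of the 17 subunits, next to a background of 47.0%.

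ND-51, which binds the flavin that takes electrons from NADH, had a peak at chr2L:6062748-6062984. It had rank 1207 in the thresholded list, rank 1313 in replicate 2 and rank 1222 in replicate 3, with the summit at -99 bp. ND-24, the iron-sulfur partner of ND-51 in the same module, had rank 1514, with 1736 in replicate 2 and 1420 in replicate 3. Its summit at chrX:17632202 lay at +113 bp from the nearer of its alternative TSSs, which flank it. At both genes the ranks in the replicates were close.

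ND-23, an iron-sulfur subunit of the quinone module on 3R, had rank 3291, with 3608 and 3240 in replicates 2 and 3. Of the membrane arm, ND-ASHI on X had rank 985, the best of the 88 genes, with rank 1624 in replicate 2 and 667 in replicate 3. ND-42 on 3R, an accessory subunit, had rank 1438, with 1231 in replicate 2 and 1812 in replicate 3. The order of these membrane arm genes differed between the replicates, ND-42 standing above ND-ASHI in replicate 2 and below it in replicate 3.

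ND-MWFE, a small membrane arm subunit on 2R, had rank 1096, with 942 in replicate 2 and 1416 in replicate 3. ND-SGDH on 3L had rank 2442, with 1937 and 3522 in the same order. ND-MNLL on X had rank 2903, with 3386 and 2855. The annotation starts CG45089 at the same TSS as ND-MNLL, so that peak counts for both genes.

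Complex II, succinate dehydrogenase, had 1 strong peak in 4 structural subunits (25.0%), near the 20.4% of all protein-coding genes. It lay at the membrane anchor subunit SdhC on 3R, with rank 5151. Replicate 2 placed it at rank 4150 and replicate 3 at 8319, outside its leading 6075. The other 3 structural subunits had pooled summits only: SdhD, the other anchor, at rank 7816 and -14 bp, the flavoprotein SdhA at rank 13364 and -139 bp, and the iron-sulfur protein SdhB at rank 15025 and -5 bp.

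Complex III, the cytochrome bc1 complex, had no thresholded promoter summit in 9 genes. This allows a share of up to 33.3%, and the background was 20.4%. All 6 structural subunits had pooled promoter summits, next to a background of 47.0%. They were led by UQCR-6.4 at rank 7524 with the summit on its TSS, and followed by UQCR-C2, a core subunit, at rank 9251 and +48 bp. The remainder ran to rank 23000 at UQCR-C1, the other core subunit. A thresholded summit of rank 460 lay at +635 bp from the TSS of UQCR-11, outside the promoter window.

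Complex IV, cytochrome c oxidase, had strong peaks at 2 of 8 structural subunits (25.0%), COX7B and COX5A, near the 20.4% of all protein-coding genes. COX7B on 3L had rank 2927, with 3227 in replicate 2 and 3005 in replicate 3. COX5A on 3R had rank 2531, and 2905 in replicate 3. Replicate 2 listed no summit within 200 bp of it and its nearest lay 6216 bp away, so only replicate 3 lists a peak there. The best pooled-only member was COX6B, at rank 7497 and -55 bp.

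Complex V, ATP synthase, had strong peaks at 3 of 11 structural subunits (27.3%), near the 20.4% of all protein-coding genes. ATPsynCF6, a peripheral stalk subunit on 3R, had rank 4131, with 3667 in replicate 2 and 5666 in replicate 3. ATPsynG on 2L, a subunit of the membrane part, had rank 5106, with 3449 and 13147. ATPsynbeta on chromosome 4, the catalytic subunit, had rank 6066 of 6075, with 4666 and 8893, and its summit at -440 bp was close to the edge of the window. Replicate 3 had a further ATPsynbeta promoter peak at rank 6875 and +102 bp, and one of ATPsynG at rank 7878 and -18 bp. All 3 ranked higher in replicate 2 than in replicate 3. ATPsynE led the pooled-only members at rank 7313 and -53 bp. A thresholded summit of rank 1137 lay at +829 bp from the ATPsynE TSS, past the end of that gene. The other thresholded summits found between 500 and 1000 bp were those at UQCR-14 (rank 4906), ND-75 (4727), and the copies UQCR-6.4L (2006) and COX7AL2 (4049). That of UQCR-6.4L, at +975 bp, also lay past the end of the gene.

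**Figure D2:**
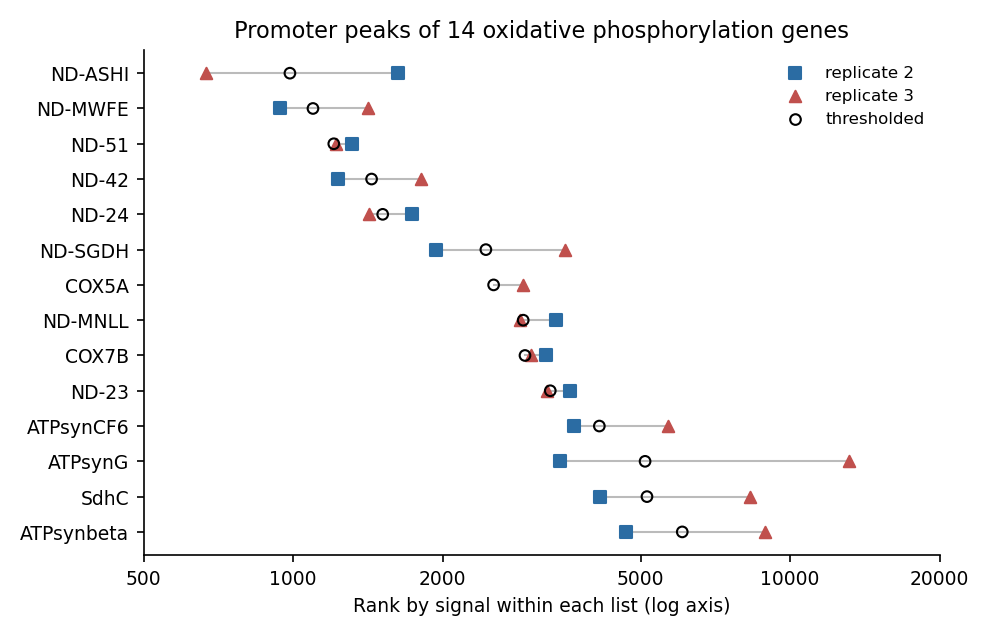
Rank by signal of the promoter peaks of 14 oxidative phosphorylation genes within each list (log axis, lower rank means stronger signal). Squares are replicate 2, triangles replicate 3 and open circles the thresholded list; COX5A has no square because replicate 2 listed no peak there. Ranks of ND-51, ND-24, COX7B and ND-23 nearly coincide, and on the log axis those of ATPsynG and ND-ASHI spread more than those of SdhC and ATPsynbeta.

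The 14 genes ranked from 985 to 6066 in the thresholded list, with a median of 2717, and each had its own peak. A replicate summit within 200 bp was listed for 13 of them in replicate 2 and 14 in replicate 3. Of these summits, 12 in replicate 2 and 11 in replicate 3 lay within 20 bp of the pooled one. In the leading 6075 peaks stood 13 of the 14 in replicate 2 and 11 in replicate 3. The thresholded list was made from the same libraries, so these ranks do not test it.

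With the 500 bp promoter window, every strong peak lay at a head-to-head gene pair. All 14 genes had an opposite-strand protein-coding gene starting within 1000 bp upstream of one of their TSSs, a feature examined after the values were seen. Of all 2839 protein-coding genes with a thresholded promoter summit, 1786 had such a neighbour. Of the 63 structural subunits, 40 have such a neighbour, and 14 of these (35.0%, interval 22.1 to 50.5) had a thresholded promoter summit, next to 35.4% of 5052 genes of that arrangement. Among the 23 structural subunits without one the count was 0, which allows up to 13.0%, and the background of 8893 genes was 11.8%. The count of 0 therefore does not separate these 23 genes from other one-directional genes at this list length. With a 1000 bp promoter window, 2 of the 23 (8.70%) had a thresholded summit, next to 24.1% of all protein-coding genes of either arrangement. ND-20, an iron-sulfur subunit of complex I without such a neighbour, was among the leading peaks of replicate 3 at rank 6067.

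Weak peaks were found in both arrangements, at 19 of 40 structural subunits with a head-to-head neighbour (47.5%, 32.9 to 62.5, background 29.4%) and at 15 of 23 without one (65.2%, 44.9 to 81.2, background 25.0%). With the strong peaks added, a pooled promoter summit was found at 33 of the 40 (82.5%, 68.1 to 91.3, background 64.8%), and still at 15 of the 23 (background 36.9%). No test of these differences was run. Of the L copies, 4 of 24 have a head-to-head neighbour, and 1 of these 4 had a pooled summit.

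At 9 of the 14 strong peaks the summit lay nearer to the TSS of the neighbour than to that of the oxidative phosphorylation gene. When each summit counted only for the nearest TSS, 5 of 88 genes kept one, with 15.1% of all genes. The 5 were ND-23, ND-24, ND-51, ND-SGDH and COX7B. Of all 1786 genes with a head-to-head neighbour and a thresholded promoter summit, 59.6% had the nearest TSS themselves, compared with 35.7% of the 14. The smallest distance to the neighbour had a median of 291 bp in the 1786 and 230.5 bp in the 14. It reached 992 and 398 bp in that order, and the shares were not matched for it. Peak lists cannot assign a summit between facing starts to either gene.

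Some neighbours are themselves mitochondrial. ND-ASHI faces Fum1, which encodes fumarase of the tricarboxylic acid cycle, with the summit at -274 bp from ND-ASHI and -248 bp from Fum1. ND-42 faces Cchl, cytochrome c heme lyase, with the summit at -150 and -79 bp. At both pairs the summit was nearer to the neighbour.

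The other 12 neighbours include genes of several cellular processes. Summits lay at -42 bp from TppII (a peptidase, at ND-MWFE), -65 bp from Sec13 (a coat and nuclear pore protein, at ATPsynCF6), -99 bp from SCAR (an actin regulator, at ATPsynG) and -109 bp from Tctp (at SdhC). They lay at -113 bp from p115 (a Golgi tether, at ND-MNLL), -69 bp from CG11076 (at ATPsynbeta) and -27 bp from glo (an RNA-binding protein, at COX5A). Nearer to the oxidative phosphorylation gene were those shared with spn-E (a piRNA pathway helicase, at ND-23), Sec3 (an exocyst subunit, at COX7B), RhoGAP68F (at ND-SGDH), corolla (a meiotic protein, at ND-24) and CG13994 (at ND-51).

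Between the TSSs nearest to the summit the gap ranged up to 522 bp at ND-ASHI, with a median of 246.5 bp. At COX5A the starts of the pair overlapped by 61 bp. The summit lay between the facing starts at 12 of the 14, the exceptions being ND-24 and COX5A. Over all TSSs, the smallest distance to the neighbour had a median of 230.5 bp in these 14 genes and 214.5 bp in the 26 structural subunits that have a neighbour but no thresholded summit.

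**Figure D3:**
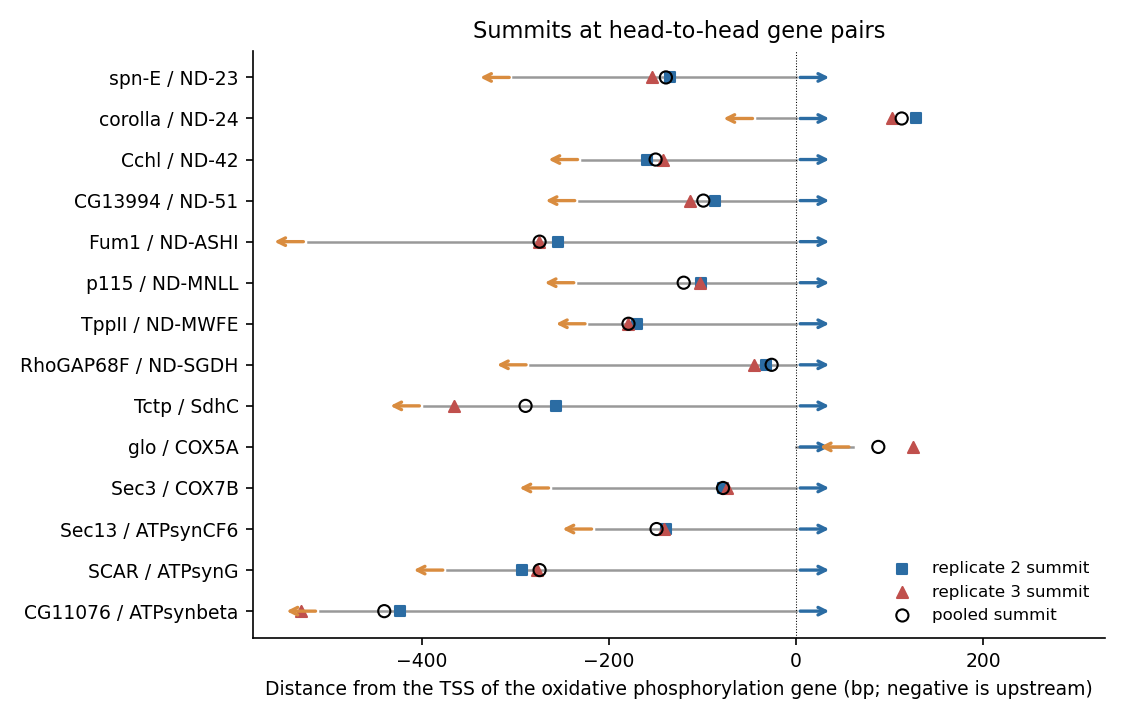
Positions of summits at 14 head-to-head pairs, in bp from the TSS of the oxidative phosphorylation gene nearest to the summit (negative is upstream). Blue arrows mark that TSS and direction, orange arrows the neighbour, grey lines the gap between them, and symbols the summits of replicate 2, replicate 3 and the pooled list. Symbols lie between the starts except at ND-24 and COX5A, and at ATPsynbeta in replicate 3, where the summit lies past the start of the neighbour.

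Strong and weak summits both lay mostly upstream, the weak ones nearer to the TSS. The 14 strong summits had a median position of -144 bp from the TSS, with 12 upstream (85.7%) and 1 within 50 bp of the TSS (7.14%, ND-SGDH). Of all genes with a thresholded promoter summit, 87.2% had it upstream and 10.1% within 50 bp. The 34 weak, pooled-only summits of structural subunits had a median of -21 bp, and 16 (47.1%) lay within 50 bp of the TSS. Upstream of the TSS lay 22 of the 34 (64.7%), with 71.3% of all genes with a pooled summit only. Over all protein-coding genes the medians were -143 bp for 2839 genes with a thresholded summit and -81 bp for 3712 with a pooled one only, and 23.7% of the latter lay within 50 bp. Weak summits thus sat closer to the TSS at structural subunits than at genes in general, a difference that was not tested. The median was -18 bp for the 15 weak summits at genes without a head-to-head neighbour and -34 bp for the 19 at genes with one.

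Examples of weak summits on the TSS are ATPsynC (the ring subunit of ATP synthase, rank 7634, +3 bp), ND-13A (rank 6649, +16 bp), ND-B17.2 (rank 13724, -7 bp) and ND-B14.7 (rank 25786, -12 bp). At the other end stood ND-B16.6 at -267 bp, COX7C at +224 bp and ND-PDSW at +426 bp. Of the 15 structural subunits with no pooled promoter summit, 10 had one in replicate 3 only, 2 in replicate 2 only, 2 in both, and ND-49 in neither.

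**Figure D4:**
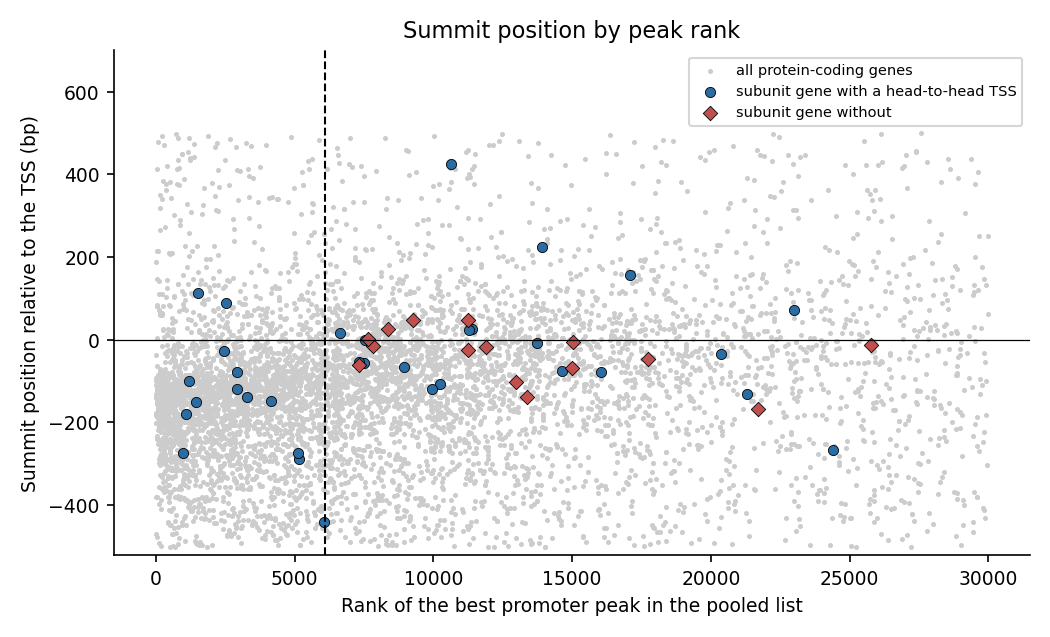
Position of the summit relative to the TSS (bp) against the rank of the best promoter peak in the pooled list, for all protein-coding genes (grey) and structural subunits with (blue circles) and without (red diamonds) a head-to-head neighbour. Left of the dashed line, at rank 6075, are the thresholded peaks. The 14 members there are blue and mostly upstream, and the red diamonds all lie to the right, 10 of 15 within 50 bp of the TSS.

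Strong summits were also A/T-rich. GC content within 50 bp was 25.4% ± 6.20 (SD over 14 summits), ranging from 15.8% at ND-42 to 34.7% at ATPsynbeta, compared with 31.4% ± 9.99 over 2031 thresholded promoter peaks. At the 34 weak summits of structural subunits it was 38.6% ± 7.07, and 40.4% ± 10.9 over 3141 pooled-only promoter peaks. Member and background values overlapped in both classes.

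Consensus words were searched on both strands from 250 bp upstream to 50 bp downstream of the most upstream TSS. The word GGTCACAC, the core of promoter motif 1, was in 15 of 63 structural subunit promoters (23.8%) and in 7.70% of all 13945 promoters. Of these 15 genes 3 had a thresholded promoter summit (ND-MWFE, COX5A and COX7B) and 11 a pooled one, compared with 30% and 64.7% of all genes with the word. TATCGATA, the DNA replication-related element, was in 9 (14.3%, compared with 9.36%). Within 50 bp of the 14 strong summits GGTCACAC was present at 0 and TATCGATA at 1, that of SdhC, compared with 1.08% and 2.22% of thresholded promoter summits of all genes. At the 34 weak summits each was present at 3 (8.82%), compared with 3.06% and 4.62% of pooled-only promoter summits of all genes.

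Among L copies, 1 of 24 promoters held GGTCACAC and 0 held TATCGATA. TATAAA was in 61.9% of structural subunit promoters and 45.8% of all promoters, and ATTTAAAA in 20.6% and 14.2%. TTACGTAA and GCGCATGC were in 0 of the 63, with 0.452% and 1.05% of all promoters, and CACGTG was in 3.17%, with 4.20%. No searched word contains another. Within 50 bp of the summit, TATAAA was present at 6 of the 14 strong summits (42.9%), compared with 27.3% of thresholded promoter summits of all genes.

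Related genes that the symbol rule does not take were examined as lists. Of 10 other subunit or cytochrome c genes, 4 had a thresholded promoter summit and 8 a pooled one, next to backgrounds of 20.4% and 47.0%. The 4 were Cyt-c-d, a cytochrome c, at rank 154 and +350 bp, blw, the ATP synthase alpha subunit, at rank 1645 and -144 bp, cype, a complex IV subunit, at rank 3894 and -293 bp, and levy, another complex IV subunit, at rank 3973 and -154 bp. The last 3 have head-to-head neighbours, which 6 of the 10 genes have. Both blw and ATPsynbeta, whose products form the catalytic head of ATP synthase, had a thresholded promoter summit. That of ATPsynbeta, at rank 6066 of 6075, lay at -440 bp from its TSS and -69 bp from that of CG11076.

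The counts in the next lists stand against the same thresholded background of 20.4% of all genes, and no list was tested against it. Of 10 assembly factors found in the annotation, 2 had a thresholded promoter summit, CIA30 of complex I (rank 263, with 309 in replicate 2 and 246 in replicate 3) and Ttc19 of complex III (rank 1158). Of 17 tricarboxylic acid cycle genes, 3 had one, Idh3g (rank 138), Fum1 (985) and Pdhb (1978). Of 13 genes of mitochondrial DNA upkeep and expression, 4 had one, Lon, a protease (rank 136), mTerf5 (2366), PolG2 (3028) and mtSSB (5399). Of 5 regulators, ERR, the oestrogen-related receptor (rank 1770), and Dref (1435) had one. Of these 11 genes mtSSB alone has no head-to-head neighbour. Among all 2839 genes with a thresholded promoter summit, 1786 have such a neighbour.

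The mitochondrial ribosomal protein genes are the closest group by organelle. A thresholded promoter summit was found at 31 of 73 (42.5%, 31.8 to 53.9), compared with 22.2% of the 63 structural subunits, and a pooled one at 49 of 73 (67.1%), compared with 76.2%. Of their genes 58 of 73 have a head-to-head neighbour, and within that arrangement the thresholded shares were 29 of 58 (50%) and 14 of 40 (35.0%). The background was 35.4% in that arrangement, and over all protein-coding genes 20.4% thresholded and 47.0% pooled. These differences were not tested. For the whole groups the 95% intervals of the thresholded shares were 31.8 to 53.9 and 13.7 to 33.9. Their overlap does not show that the shares are alike.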

How the data were processed

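Peak lists in narrowPeak form were deposited for both replicates, for the pooled replicates and after an irreproducible discovery rate (IDR) threshold, on dm6, per the accompanying file notes. These notes name a control alignment. Which aligner, peak caller and threshold were used is not given in the sources used here. Per peak, the authors deposited a signal value on an unstated scale, which served to rank peaks inside each list. Summits are the deposited start plus offset, given 1-based.

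Gene models were those of Ensembl release 115, and all 88 members had the same coordinates in RefSeq, whose Release 6 sequence was used. No peak ran past an arm end. A gene had a promoter summit when one lay within 500 bp of a TSS of any of its protein-coding transcripts, and its best-ranked one was kept. Replicate peaks were matched within 200 bp. Intervals are Wilson 95% intervals, a count of 0 allows 3 counts, and neither covers dependence between neighbouring genes. With a single group, no test compares conditions. Python 3.11.15, pandas 2.3.3 and scipy 1.17.1 were used, and the promoter assignment was tested on simulated data.

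Members, lists and modules were chosen with earlier results of these data known. Genes were named by a rule: every member with a thresholded promoter summit, the best pooled-only member of each complex, and listed pathway genes with a thresholded summit; other genes were named after their values were seen. Pathway lists held 67 symbols, of which 55 matched the annotation. Alternatives varied the window, list, replicate, TSS choice and member set.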

Additional observations from a re-analysis of the deposited data

How the results depend on the processing

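Of 70 alternatives over 9 shares, 56 stayed within the 95% interval of the reported share. The assignment to the nearest TSS alone moved most: the thresholded share of the 88 genes was 5.68% (15.9% as reported), the pooled share 46.6% (60.2%), the thresholded shares of complexes I, II and V were 10%, 0% and 0%, and that of structural subunits with a head-to-head neighbour 12.5% (35.0%). Fewer genes can hold a summit there by construction. Over all protein-coding genes the nearest-TSS shares were 15.1% thresholded and 39.5% pooled (20.4% and 47.0% as reported). With structural members only, the pooled share was 76.2%. With a 250 bp window the thresholded share was 0% for complex II and 6.67% for complex V, with a 1000 bp window 33.3% for complex III, and with the 3037 highest peaks 0% for complexes II and V. Leaving out either replicate gave 14.8% to 17.05% of the 88 genes, and 53.4% to 69.3% for the pooled share. By complex these ranges were 22.5% to 22.5% for I, 0% to 12.5% for II, 0% to 11.1% for III, 6.25% to 12.5% for IV and 6.67% to 26.7% for V. With head-to-head neighbours the range was 30% to 37.5%, and without them 0% to 4.35%. With a 1000 bp promoter window these shares were 40% and 8.70%, next to 24.1% of all protein-coding genes, not split by arrangement. The settings for head-to-head neighbours, 1000 or 500 bp, were chosen after seeing the data. Small complexes make their shares move in large steps. No paired analysis was possible because there is 1 group and no test. Depth is unknown, so absence from a list does not show absence of binding.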
